A study of Bos taurus with 8 samples.

Results

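The transcripts described here belong to the machinery by which a muscle cell stores, releases and takes back calcium, and they were chosen by name: *RYR1*, *ATP2A1*, *ATP2A2*, *CACNA1S*, *CACNB1*, *CASQ1*, *CASQ2*, *SLN*, *PLN* and *SRL*. Probes of the array were assigned to genes through the RefSeq accession that the scanner files give for each probe. Of the 10 named genes, 3 were matched in this way, *ATP2A1* and *CACNB1* by 1 probe each and *ATP2A2* by 2 probes, which makes 4 probes. The other 7 genes were not matched and were not analysed here. In the whole series, 7788 genes could be named.

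Primary muscle cells were taken from the semitendinosus muscle of 15-month-old bulls of Limousin (LIM) and Hereford (HER), which are bred for beef, and of Holstein-Friesian (HF), which is bred for milk, with 4 bulls per breed, and none of the groups received a treatment. RNA was taken from cultures that were still proliferating, at 80% confluence, in growth medium with fetal bovine serum. Expression was measured on 8 two-colour oligonucleotide arrays, each holding RNA of a beef bull beside RNA of an HF bull. LIM cells carried Cy5 on the 4 LIM arrays and HER cells carried Cy3 on the 4 HER arrays. All arrays of a comparison lay on 1 slide, and each array holds both breeds of its ratio. Breed and dye cannot be told apart within a comparison, nor can breed, slide and dye between LIM and HER. The cultures were partly purified by preplating and are mixtures of cells, and in such bulk RNA fewer cells of a type and less RNA per cell cannot be told apart.

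In a muscle fiber, the sarcoplasmic reticulum stores calcium bound to calsequestrins (*CASQ1*, *CASQ2*). An action potential in the transverse tubule moves the voltage sensor, a calcium channel built from *CACNA1S* and its beta subunit *CACNB1*, and the sensor opens the ryanodine receptor *RYR1*, through which calcium leaves the store and starts contraction. Relaxation needs the calcium pumps of the reticulum. *ATP2A1* encodes the pump of fast skeletal fibers, and *ATP2A2* encodes a pump with one form in heart and slow fibers and another form in nearly all cells. Sarcolipin (*SLN*) and phospholamban (*PLN*) hold the pumps back, and sarcalumenin (*SRL*) binds calcium in the store. Myoblasts assemble this machinery while they leave the cell cycle and fuse into myotubes.

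Values are log2 ratios of beef over HF, made by the scanner software after background subtraction and dye normalization, so that 0 is an equal signal and 1 is a doubling. A probe was called at a Benjamini-Hochberg adjusted p of at most 0.05 in limma's moderated test over 17631 probes together with a fold change (FC) of at least 1.3, which is 0.38 on the log2 scale. In a channel, 68.8% to 85.2% of all probes lay well above background, and all 4 probes of the calcium handling genes did so in 16 of 16 channels. Ratios of LIM arrays correlated with each other at 0.34 to 0.78 across probes and those of HER arrays at 0.33 to 0.65.

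Certain arrays stood apart. The LIM channel of LIM replicate 1 correlated with the other LIM channels at -0.41 to -0.26, as deviations from the mean of the 8 beef channels across probes, and came nearest to HER replicate 3 at 0.23. The HER channel of HER replicate 1 correlated with the other HER channels at -0.29 to -0.02 and came nearest to LIM replicate 2 at 0.35. Deviations from a shared mean lean toward negative correlations. On the other arrays the lowest value within the breed was -0.41 to -0.02. In each case this was the value with the array numbered 1, so it gives no separate baseline. The highest value within the breed on those other arrays was 0.15 to 0.39, so the arrays numbered 1 differed in having none above 0. The labels were kept, and results are also given without both arrays numbered 1. The HF channels of a LIM and a HER array with the same number moved together, with correlations of their deviations between 0.61 and 0.80 over the 4 pairs against -0.36 to 0.02 over the 12 pairs with different numbers. With 4 HF bulls for 8 HF channels, HF bulls were used on more than 1 array, so the 8 HF channels are not 8 animals and the LIM and HER comparisons share controls. Which HF bull was on which array is not given in the sources used here.

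The fast-fiber pump *ATP2A1* (accession NM_001075767) was higher in both beef breeds than in HF. In LIM over HF, its log2 ratio was 2.48, 1.82, 1.85 and 2.49 in replicates 1 to 4. In HER over HF, it was 1.39, 1.78, 0.46 and 2.18. All 8 ratios lay above 0, and HER replicate 3 was the lowest of them, below every LIM array.

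In LIM the mean ratio was 2.16 ± 0.38 (SD, n = 4), an FC of 4.47 with a 95% confidence interval of 2.96 to 6.77 (limma, adjusted p = 0.000892). In HER it was 1.45 ± 0.74 (SD, n = 4), an FC of 2.74 with an interval of 1.81 to 4.14 (limma, adjusted p = 0.0082). The fit used a spread shared by both comparisons, which gave an SE of 0.261 in LIM and in HER. The HER arrays alone gave an SE of 0.368 (the methods' t-test, adjusted p = 0.112). Over the mean of both comparisons, the ratio was 1.81 with an SE of 0.18 and an FC of 3.50 (limma, adjusted p = 0.000291).

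*ATP2A1* was the only one of the 4 calcium handling probes called in each of these comparisons. The share of all tested probes called was 34.3% in LIM versus HF, 24.4% in HER versus HF and 38.1% in the beef mean versus HF, so a call on 1 of 4 probes is near the background. In size, 2.39% of all tested probes had a larger ratio than *ATP2A1* in the beef mean.

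**Figure D1:**
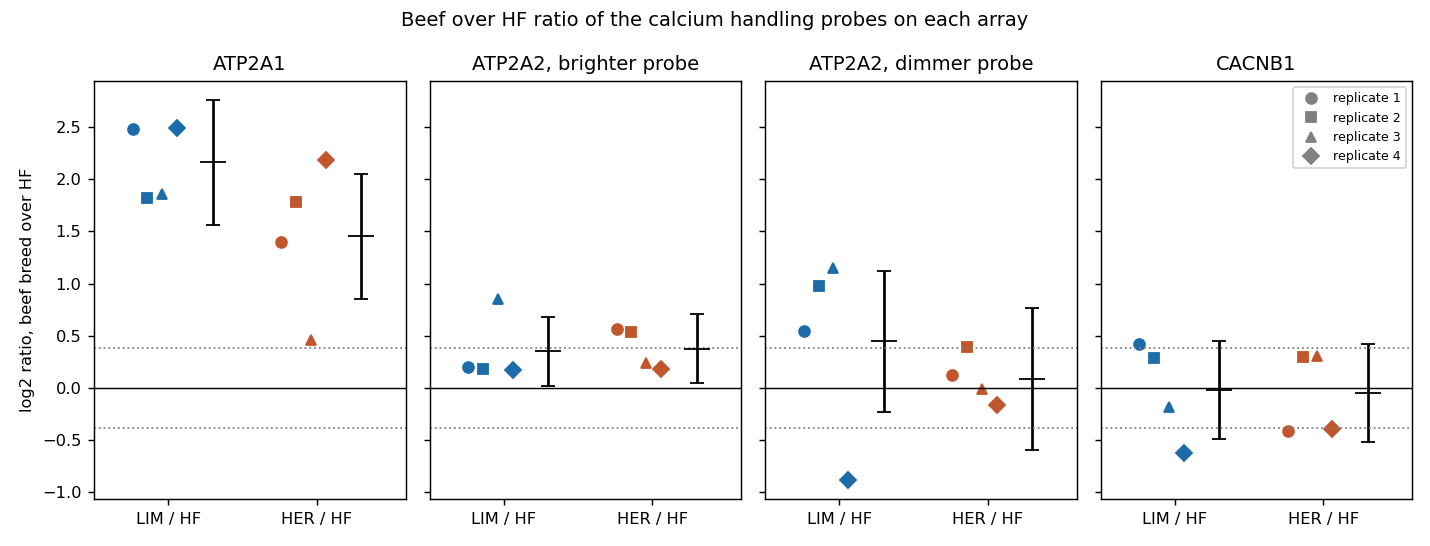
Log2 ratio of beef over HF on the vertical axis for the 4 probes, with a point per array (LIM blue, HER orange, symbols by replicate number) and, in black, the mean with its 95% confidence interval. Dotted lines mark an FC of 1.3 in either direction; *ATP2A1* lies above the upper line on 8 of 8 arrays, from 0.46 to 2.49, and *CACNB1* lies on both sides of 0.

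The level in each channel, as log2 intensity after quantile normalization of the average intensities between arrays, shows where the ratio came from. In the LIM channels, *ATP2A1* was 9.87, 8.43, 8.21 and 9.83 in replicates 1 to 4, and in the HF channels beside them it was 7.39, 6.61, 6.35 and 7.34. In the HER channels it was 8.40, 8.67, 5.80 and 9.22, against 7.0, 6.89, 5.34 and 7.04 in the HF channels. Every LIM channel lay above all 8 HF channels, whereas HER replicate 3 fell among the HF channels and below all but 1 of them.

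The HF spots of *ATP2A1* were dim on all 8 arrays, with a median brightness of 59.2 to 106.5 beside LIM and 75.0 to 142.5 beside HER. The dimmest, on LIM replicate 3, had a local background of 25.2. Over the 16 channels, the lowest brightness relative to background was 2.03. The ratios of *ATP2A1* thus have dim HF signals as their denominator, and the part of this in their size was not tested. HER replicate 3 was the lowest HER array in both channels, with a median spot brightness of 61.5 in HER and 75.0 in HF against local backgrounds of 23.5 and 37.0. On the other HER arrays, the brightness in HER was 249.5 to 376.8. The share of probes well above background in the beef channel was lowest on the same array, at 68.8%, and the part of this in its *ATP2A1* ratio was not tested. Without HER replicate 3, the HER ratio was 1.78, with an adjusted p of 0.00827 in limma. The duplicate spots of *ATP2A1* differed by at most 0.37 on the log2 scale, on HER replicate 2.

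Without both arrays numbered 1, the ratio of *ATP2A1* was 2.05 in LIM (limma, adjusted p = 0.0087) and 1.47 in HER, where the call was lost (limma, adjusted p = 0.0506). In the beef mean it was 1.76 (limma, adjusted p = 0.00366). With each same-numbered pair of arrays averaged first, so that a shared HF culture would count once, the beef mean was 1.81 (limma, adjusted p = 0.00384, n = 4).

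The ratio was smaller under settings that changed background correction and normalization together than with any 1 array left out. With normexp background correction and loess on the median intensities, it was 1.41 in LIM and 0.64 in HER, and the HER call was lost (limma, adjusted p = 0.287). With backgrounds that the scanner software had marked as outliers replaced by the median of the array, it was 1.54 and 0.98, both called.

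**Figure D2:**
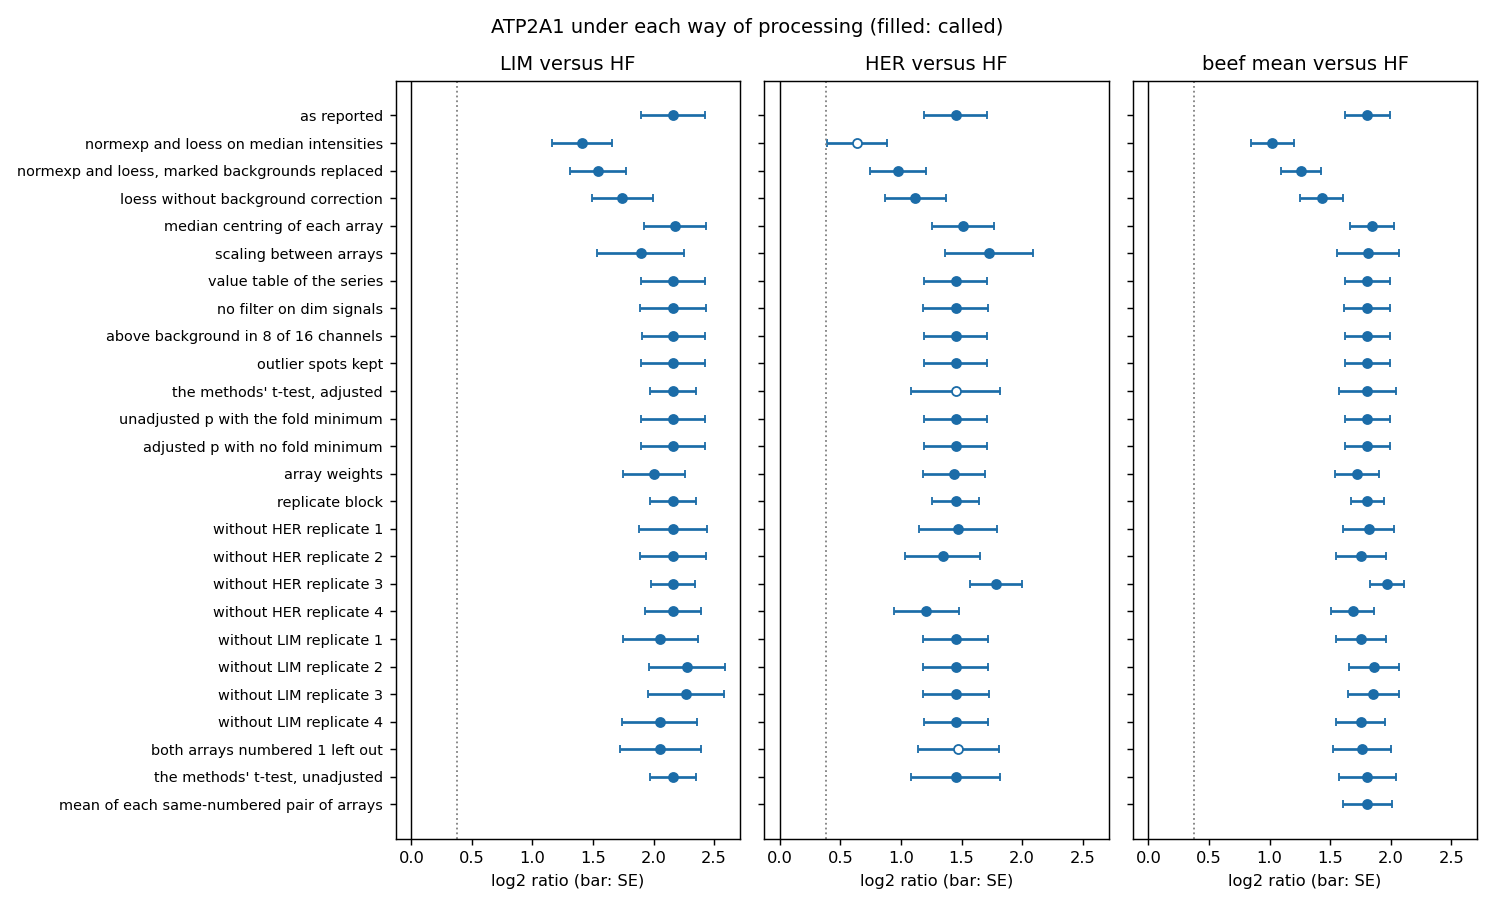
Log2 ratio of *ATP2A1* on the horizontal axis, with its SE as a bar, for LIM versus HF, HER versus HF and their mean under each way of processing. Filled points were called and open points were not; the ratio lay above 0 throughout, from 1.41 to 2.28 in LIM, from 0.64 to 1.78 in HER and from 1.02 to 1.97 in the mean.

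The other pump, *ATP2A2* (accession NM_001191430), gave smaller ratios. On its brighter probe, the log2 ratio was 0.20, 0.18, 0.86 and 0.17 in LIM replicates 1 to 4. In HER replicates 1 to 4 it was 0.56, 0.54, 0.24 and 0.18. The ratio was above 0 on 8 of 8 arrays, but only LIM replicate 3, HER replicate 1 and HER replicate 2 passed the log2 threshold of 0.38.

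In LIM the mean was 0.35 ± 0.34 (SD, n = 4), with an adjusted p of 0.0888 in limma. In HER it was 0.38 ± 0.20 (SD, n = 4), with an adjusted p of 0.0866, and neither was called. The beef mean was 0.36 with a confidence interval of 0.13 to 0.60. Its adjusted p was 0.0185 in limma, but the FC of 1.29 missed the minimum of 1.3, so it was not called. Without both arrays numbered 1, the beef mean was 0.36 (limma, adjusted p = 0.0711). The probe is bright, with medians of 1904.5 to 17172.2 over the 16 channels.

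The dimmer *ATP2A2* probe, which carries the same accession, varied more. It gave 0.54, 0.98, 1.15 and -0.88 in LIM replicates 1 to 4. In HER it gave 0.12, 0.39, -0.01 and -0.16. Replicate 4 was the lowest array of each breed on this probe, and its HF channel, at 9.69 beside LIM and 10.05 beside HER, was the highest HF level on each slide.

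In LIM the dimmer probe had a mean of 0.45 ± 0.92 (SD, n = 4). In HER the mean was 0.09 ± 0.23 (SD, n = 4), and the beef mean was 0.27 (limma, adjusted p = 0.319). Without LIM replicate 4, the LIM mean rose to 0.89 and was called (limma, adjusted p = 0.00495). The ratios of both probes differed by -0.80 to 1.05 on an array, in both directions, so the probes did not give the same value for a culture. Which transcript forms each probe detects was not analysed here.

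On every array, the ratio of *ATP2A1* exceeded that of the brighter *ATP2A2* probe. The gap between both ratios was 1.81 ± 0.62 (SD, n = 4) on LIM arrays, from 1.00 to 2.32, and 1.07 ± 0.75 (SD, n = 4) on HER arrays, from 0.22 to 2.00. These values describe unequal ratios of the pumps and depend on the processing. Under normexp and loess, *ATP2A1* had 1.409 and the brighter *ATP2A2* probe 0.392 in LIM. In HER they had 0.637 and 0.355, so the gap was smaller in both breeds under that setting.

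The voltage sensor subunit *CACNB1* (accession NM_175819), which brings the sensor to the membrane, had no shared direction. Its log2 ratio was 0.43, 0.29, -0.18 and -0.62 in LIM replicates 1 to 4. In HER it was -0.41, 0.29, 0.31 and -0.39. Each breed thus had 2 arrays above 0 and 2 below.

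In LIM its mean was -0.02 ± 0.48 (SD, n = 4), with an adjusted p of 0.943 in limma. In HER the mean was -0.05 ± 0.40 (SD, n = 4), with an adjusted p of 0.877. The beef mean was -0.04 (limma, adjusted p = 0.851) with a 95% confidence interval of the FC of 0.78 to 1.23, and its sign turned under several other ways of processing. The spread lay in the beef channels. *CACNB1* levels ran from 9.67 to 10.68 over the LIM channels and from 9.88 to 10.54 over the HER channels, but only from 10.07 to 10.36 over all 8 HF channels. The duplicate spots of *CACNB1* on an array differed by at most 0.09.

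**Figure D3:**
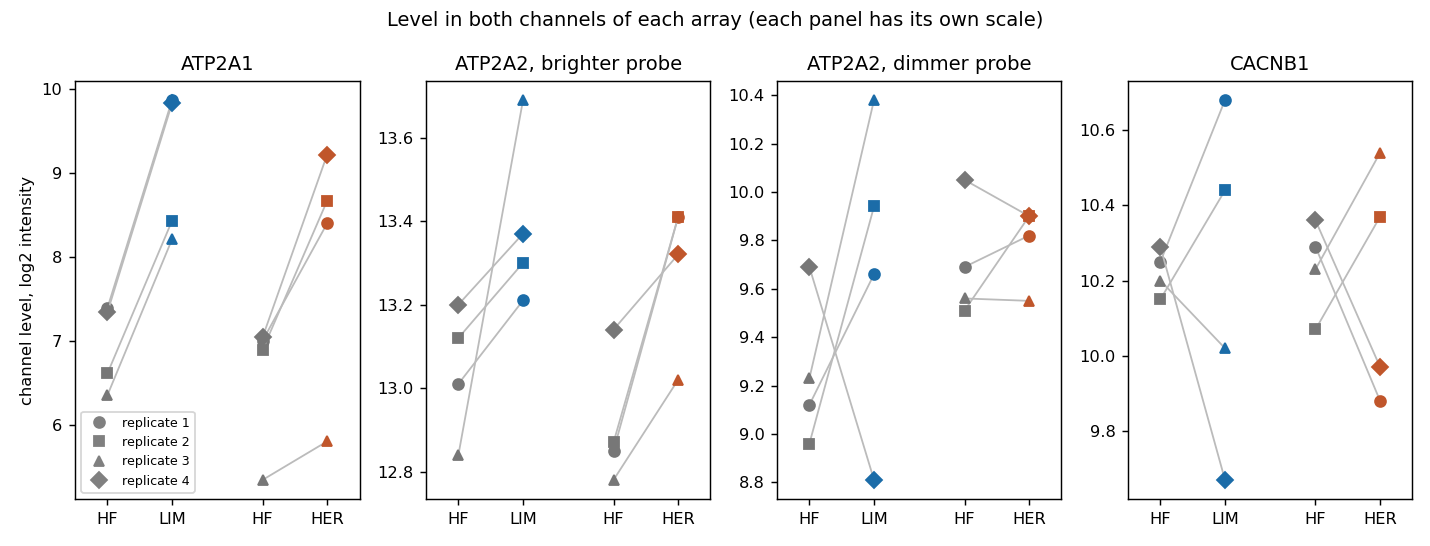
Level of the 4 probes in both channels of each array, as log2 intensity on the vertical axis with a scale of its own in each panel; grey points are HF, blue LIM and orange HER, symbols give the replicate number and a line joins the channels of an array. For *ATP2A1* every line rises from HF to the beef channel, and for *CACNB1* the HF points lie close together, at 10.07 to 10.36, while the beef points spread.

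Between the breeds, the difference of the ratios, LIM over HF minus HER over HF, was called for 0 of the 4 probes by limma after adjustment. Of all tested probes, 0.233% were called. At an unadjusted p of 0.05 with the FC minimum, 0 of the 4 passed, where 14.1% of all tested probes did. Neither count sets these 4 probes apart. For *ATP2A1*, the difference was 0.71 with an interval of -0.14 to 1.55 (limma, adjusted p = 0.419). The interval reaches an FC of 2.93 in favor of LIM, so these arrays do not show that LIM and HER were alike. It was -0.03, from -0.49 to 0.44, for the brighter *ATP2A2* probe and 0.36, from -0.60 to 1.32, for the dimmer one. For *CACNB1* it was 0.03, from -0.64 to 0.69. Slide and dye differ between the breeds as well and cannot be told apart from them here.

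A wider list of 47 other genes of calcium handling was then read by role. Of these, 24 were matched to a probe, 5 of them were too dim to be tested, and 19 were tested on their brightest probe. In the beef mean, 7 of the 19 were called higher, 2 were called lower and 10 were not called. Of all tested probes, 38.1% were called and 17.7% were called higher. Without regard to direction, the share of the list called is not far from that of all probes, whereas the share called higher lies above 17.7%. The list was chosen with earlier results of these data known, so its counts, also by role, do not test for an excess. The median ratio of the 19 was 0.18, beside a median of -0.04 over all tested probes. In LIM 6 were called higher and 1, *STIM1*, lower, where 34.3% of all tested probes were called and 16% were called higher. In HER 6 were called higher and 1, *PVALB*, lower, where 24.4% were called and 10.4% were called higher. The higher calls included *TMEM38A* in LIM but not HER, and *CALR* in HER but not LIM.

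Among partners of the voltage sensor and proteins of the transverse tubule, 3 of 4 tested genes rose, where 17.7% of all tested probes did. *STAC3*, the adaptor that couples the sensor to the release channel, had a ratio of 1.66 in the beef mean, between 0.86 and 2.52 over the 8 arrays (limma, adjusted p = 0.000378). *DYSF*, dysferlin, a membrane repair protein that is also found at the tubules, had 1.62, between 0.46 and 2.75 (limma, adjusted p = 0.00169).

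*CAV3*, muscle caveolin, which takes part in forming the tubules, had a ratio of 1.37 in the beef mean, between 0.11 and 2.57 (limma, adjusted p = 0.00201). These 3 genes were called in both breeds, with ratios of 1.29 to 1.75 in LIM and 1.45 to 1.81 in HER. Under normexp and loess, 0 of all tested probes were called in HER, so these HER calls were lost there. In the beef mean the 3 genes stayed called under all 25 alternatives. Their ratios went down to 0.91 for *STAC3*, 1.33 for *DYSF* and 0.81 for *CAV3*. *CACNB3*, another beta subunit of calcium channels, had a ratio of 0.03 and, like *CACNB1*, was not called (limma, adjusted p = 0.881). *CACNB2* and *JPH1* were too dim to be tested.

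Among calcium binding proteins, *RCN1*, reticulocalbin of the endoplasmic reticulum, rose, with a ratio of 1.40 in the beef mean (limma, adjusted p = 0.00122). *CALR*, calreticulin, the calcium binding chaperone of the same compartment, had 0.50 (limma, adjusted p = 0.0124). On both number 4 arrays, these genes had their lowest ratios of the breed, 0.46 in LIM and 0.42 in HER for *RCN1* and -0.25 and 0.23 for *CALR*. The HF level of *RCN1* was 14.96 and 14.79 on these arrays and 13.47 to 13.84 on the other 6, so the number 4 HF channels stood apart from the rest for this gene.

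The *CALR* call did not hold under normexp and loess (limma, adjusted p = 0.129), without both arrays numbered 1 (limma, adjusted p = 0.0713) or over pair means (limma, adjusted p = 0.0544, n = 4). *PVALB*, parvalbumin, the soluble calcium buffer of fast fibers, fell by 0.45 on the log2 scale in the beef mean (limma, adjusted p = 0.00139). Its spots were close to background, with medians of 45.5 to 105.0 against backgrounds of 24.0 to 40.8. The *PVALB* ratio was -0.06 under normexp and loess (limma, adjusted p = 0.188), -0.11 with marked backgrounds replaced and -0.15 under loess without background correction, and it was called under none of these 3 settings.

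In the genes that refill the store from outside, *STIM1*, the sensor of store calcium, fell, with a ratio of -0.55 in the beef mean (limma, adjusted p = 0.006) and ratios below 0 on 8 of 8 arrays, from -1.28 to -0.28. *ORAI1*, the channel that *STIM1* opens, had a ratio of 0.07 (limma, adjusted p = 0.403). The inositol trisphosphate receptors *ITPR2* and *ITPR3*, release channels of most cells, had 0.04 and 0.68 and were not called, the latter with an interval of -0.02 to 1.39.

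*CAMK2G*, a calcium and calmodulin dependent kinase, had 0.50 with 8 of 8 arrays above 0, from 0.15 to 0.73 (limma, adjusted p = 0.00281), but 0.27 under normexp and loess, below the FC minimum. Its relative *CAMK2D* had 0.12 and was not called.

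*TMEM38A*, a potassium channel of the reticulum in muscle, was called in LIM, at 0.56 (limma, adjusted p = 0.0262), and not in HER, at 0.08 (limma, adjusted p = 0.739), and the difference between both breeds was not called. In the beef mean it was 0.32, under the FC minimum. Also tested and not called in the beef mean were *FKBP1B*, which binds the release channel, *ASPH*, whose locus encodes junctin, *TMEM38B* and the sodium-calcium exchanger *SLC8A3*, with ratios of -0.10 to 0.18. The pump gene *ATP2A3*, the exchanger *SLC8A1* and *HRC*, a calcium binding protein of the reticulum, were too dim to be tested.

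**Figure D4:**
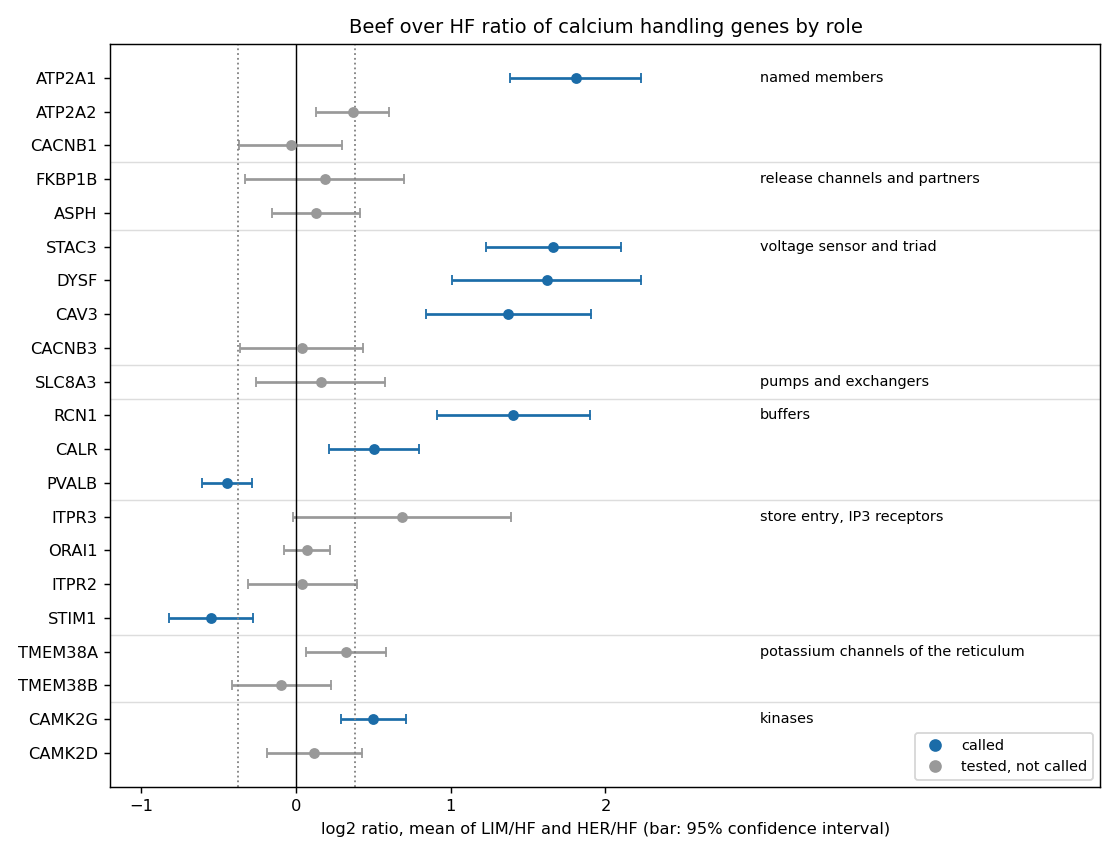
Mean log2 ratio of beef over HF on the horizontal axis, with its 95% confidence interval, for the 3 matched genes and 18 of the 19 tested genes of the wider list, grouped by role (brightest probe of each gene). Blue marks genes called and grey those not called, and dotted lines mark an FC of 1.3; the ratios run from -0.55 for *STIM1* to 1.81 for *ATP2A1*.

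The named genes whose ratios came nearest to those of *ATP2A1* over the 8 arrays, by root mean square difference among 6806 genes, were *FAM89A* at 0.41, *TAMALIN* at 0.41 and *MYL4* at 0.47 on the log2 scale. *MYL4* encodes a myosin light chain of embryonic muscle and the atrium. It had a ratio of 2.09 in LIM and 1.78 in HER.

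Markers of cell type moved in the same comparisons. Of 8 listed genes of differentiating muscle cells, 7 were matched and 6 tested, and 6 of 6 rose in the beef mean, where 17.7% of all tested probes rose and 38.1% were called. The same shares stand beside the counts of the other marker lists. These lists, too, were chosen with earlier results of these data known, so the counts do not test for an excess. *MYH3*, embryonic myosin heavy chain, had a ratio of 4.18 (limma, adjusted p = 4.91e-05) and *MYOG*, myogenin, 2.05 (limma, adjusted p = 0.000122), and both were above background in 16 of 16 channels although the cultures were labelled as proliferating. The summed linear intensity of this list was 37800 to 82100 in LIM, 19700 to 101000 in HER and 2360 to 9150 in HF channels. Such sums mostly follow the brightest genes of a list. How often other sets of genes separate beef from HF was not analysed.

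Of 6 tested markers of satellite cells and myoblasts, 5 rose in the beef mean, with summed intensities of 37400 to 111000 in LIM, 46700 to 94700 in HER and 13700 to 56800 in HF. Of 7 fibroblast markers, 6 rose on their brightest probe and 1, *PDGFRA*, fell, while a dimmer probe of *DCN*, which counts as risen, had a ratio of -0.35 and was not called (limma, adjusted p = 0.0219). The sums, led by the brightest of these genes, were 358000 to 624000 in LIM, 364000 to 530000 in HER and 56600 to 223000 in HF. Of 4 tested markers of smooth muscle cells and pericytes, 2 rose, with sums of 217000 to 455000 in LIM, 337000 to 440000 in HER and 103000 to 273000 in HF.

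Of 3 tested heart muscle markers, 2 fell, and *NPPA* was above background in 0 of 16 channels. The sums for heart muscle were 106 to 230 in LIM, 130 to 158 in HER and 192 to 338 in HF. Of 3 adipocyte markers 2 rose, of 2 markers of macrophages and leukocytes 1 rose, and the 1 tested endothelial marker was not called. The part of these shifts in the ratios of *ATP2A1* and the other calcium handling genes was not tested.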

How the data were processed

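Arrays of design 015354 were read by the authors with Feature Extraction 10.7.3.1, per the file headers, and the deposited files hold the intensity of each spot and its background in both dyes beside the log10 of red over green. The deposited series table holds the same log10 ratio (largest difference 0). Here the ratio was turned to log2 beef over HF, outlier spots were left out, and the 2 spots of a probe were averaged. Of 21475 probes, the 17631 that the software marked as well above background in 4 or more of 16 channels were fitted over all 8 arrays with limma 3.58.1 in R 4.3.3, with a mean for each comparison. Channel levels came from the processed intensity after Aquantile normalization. The number of arrays, 4 in a comparison, limits the precision. Ratios of 8.54% to 16.5% of spots were exactly 0.

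The members, the wider list by role and the marker lists were chosen with earlier results of these data known. All probes of the members were named, of the wider list those called in the beef mean by role (except 1, which is counted but not reported here), and 3 genes nearest to a called member. Names came through unversioned RefSeq accessions (assembly ARS-UCD2.0) for 8297 probes. No coordinates or sequences are given, since the array rests on another build and sequences were not used here. The fit was run on simulated data with independent normal errors and equal shifts in LIM and HER. Shared HF bulls and dim spots were not part of that simulation. Alternatives covered background, normalization, filters, the methods' t-test, thresholds, array weights, a replicate block and left-out arrays; leaving out both arrays numbered 1, averaging same-numbered arrays and the unadjusted t-test were chosen after seeing the data.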

Additional observations from a re-analysis of the deposited data

Results flagged for a closer look

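On the brighter *ATP2A2* probe, LIM replicate 3 had a log2 ratio of 0.86 against 0.17 to 0.20 on the other 3 LIM arrays, a gap of 0.95 of the range of the group, above the critical value of Dixon's test at the 95% level. Its LIM channel was the highest of the LIM channels at 13.69 and its HF channel the lowest of the HF channels beside LIM at 12.84. Without it, the LIM ratio was 0.18 (limma, adjusted p = 0.343). It was 1 of 26 groups of 4 arrays looked at, where chance flags about 1 in 20.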

How the results depend on the processing

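*ATP2A1* stayed higher in beef under all alternatives run and was called in LIM and in the beef mean under each of them. Its HER call was lost under normexp with loess (0.64), under the methods' t-test after adjustment (adjusted p = 0.112) and without both arrays numbered 1 (1.47), so the number of calcium handling probes called in HER was then 0, and it was 2 under loess without background correction and under scaling between arrays. In LIM, 3 probes were called with array weights, and 1 to 2 when an array was left out. In the beef mean, 2 were called under normexp with marked backgrounds replaced, under loess without background correction, with median centring and with no FC minimum, 3 with array weights, and 1 to 3 when an array was left out.

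The sign of *CACNB1* turned. In LIM it was 0.028 under normexp and loess, 0.014 with marked backgrounds replaced, 0.006 under loess alone and 0.047 with array weights, and left-out arrays gave -0.172 to 0.177. In HER it was 0.000 under loess alone, 0.011 with median centring, 0.017 with array weights and 0.071 without both arrays numbered 1 (left-out arrays, -0.168 to 0.071). In the beef mean it was 0.006, 0.003, 0.002 and 0.032 under marked backgrounds replaced, loess alone, median centring and array weights (left-out arrays, -0.111 to 0.064). LIM minus HER was -0.017 with median centring and -0.243 without both arrays numbered 1 (left-out arrays, -0.123 to 0.226). For the brighter *ATP2A2* probe, LIM minus HER was 0.037 under normexp and loess, 0.102 with array weights and 0.085 without both arrays numbered 1 (left-out arrays, -0.194 to 0.035), and the dimmer probe in HER gave -0.014 to 0.169 with left-out arrays. The causes were not tested.

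With the replicate number as a block, *ATP2A1* had 2.16 in LIM (limma, adjusted p = 0.00334) and 1.45 in HER (limma, adjusted p = 0.0102), and the block changed no call on the 4 probes. Same-numbered arrays correlated in their ratios, as deviations from the comparison means, at -0.24, 0.13, 0.30 and 0.54. Over all probes, 4302 were called in HER versus HF by limma, against 0 under normexp and loess (1746 at an unadjusted p), 2 under the adjusted t-test, 1357 without both arrays numbered 1 and 1527 to 5439 with an array left out. In LIM versus HF, 6056 were called against 1002 under the adjusted t-test and 3796 to 7011 with an array left out, and in the beef mean 6723 against 3291 under normexp and loess. LIM minus HER gave 41 calls by limma (2482 at an unadjusted p), and 0 to 232 under the alternatives with adjusted p. With 4 arrays per comparison, small differences could be missed. The spots of *ATP2A1* and *PVALB* were dim, and the size of their ratios changed with the processing.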
